A study of Homo sapiens with 24 samples.

Results

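The 10 genes described here are regulators of the integrated stress response: ATF4, DDIT3, ATF3, ATF5, CEBPB, CEBPG, TRIB3, PPP1R15A, CHAC1 and NUPR1. They were taken by symbol from a fixed list that was chosen with earlier results of these data known. All 10 were found in each of 4 tables that together list 39772 genes. The integrated stress response is a cellular program in which kinases that sense misfolded protein, amino acid shortage, haem shortage or viral RNA phosphorylate the translation factor eIF2. General protein synthesis then slows, while translation of ATF4 mRNA increases, and ATF4 protein switches on genes for amino acid supply, further transcription factors and feedback inhibitors. In cells under lasting stress the same program, through DDIT3 (also called CHOP), is known to favour cell death, so its output can protect or harm a tumour cell.

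The study exposed 4 human neuroblastoma cell lines to GSK-J4, a cell-permeable inhibitor of the histone H3 lysine 27 demethylases KDM6A and KDM6B. Each line was left untreated or given 1 µM GSK-J4 over 72 hours, and 24 libraries of polyadenylated RNA were made, 3 in each of 8 groups. LAN5 and IMR5 are MYCN-amplified and labelled sensitive to the compound, SK-N-FI is MYCN wildtype and labelled sensitive, and SK-N-BE(2) is MYCN-amplified and labelled resistant. Each line is a single established culture model, so sensitivity and MYCN status cannot be told apart from the other differences between these lines.

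The data used here are 1 table of the authors' own comparison per line, with a mean over the 6 libraries of that line, and hold no values of single libraries. The depth per library is therefore unknown, no spread between libraries can be shown, and the errors given are standard errors of the fold changes. The labels do not say that replicates were separate cultures, and the p-values then reflect only how much these libraries vary, which may be technical. Fold changes are read as GSK-J4 over untreated, and the table used for SK-N-FI was matched to that line by the likeness of its name and by elimination; neither is stated in the sources used here. Of 12 markers of sympathetic neuroblasts all 12 were listed for LAN5 and SK-N-BE(2) and 11 for IMR5 and SK-N-FI, whose tables do not list TH. Levels are given as CPM, normalized counts per 1000000 of a table's summed means. The neuroblast markers summed to 4011 CPM (LAN5), 1740 (IMR5), 2388 (SK-N-FI) and 5263 (SK-N-BE(2)), against at most 13.8 CPM for 8 Schwann and glial markers and 9.92 for 10 immune and endothelial markers. Fibroblast and muscle markers summed to 164, 188 and 289 CPM in the sensitive lines and to 2240 in SK-N-BE(2). Most of the SK-N-BE(2) sum came from LUM and DCN, named after their values were seen, with means of 19924 and 11860 normalized counts. COL1A1 and COL3A1 had 552 and 589 there, and ACTA2 had 41.

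GSK-J4 raised every one of the 10 regulators in each of the 3 sensitive lines. For LAN5 this was 10 of 10 in the authors' deposited table, where 22.5% of all 25753 genes tested rose, 19.2% fell and 41.7% changed in either direction (DESeq2 Wald test, adjusted p under 0.05). For IMR5 it was 10 of 10, where 22.6% of 22594 genes rose, 21.6% fell and 44.1% changed, and for SK-N-FI 10 of 10, where 16.8% of 22576 genes rose, 14.8% fell and 31.6% changed. In SK-N-BE(2) none of the 10 was called in the authors' deposited table, where 1.62% of 13407 genes tested rose, 0.858% fell and 2.48% changed (DESeq2 adjusted p between 0.441 and 0.997). At an unadjusted p under 0.05 there was 1, ATF3. Deposited fold changes were shrunken toward 0, most strongly in SK-N-BE(2), so values called prior-removed below have this shrinkage undone and can be set beside each other across lines. The median prior-removed log2 fold change of the 10 genes was 2.71 (LAN5), 3.04 (IMR5), 1.75 (SK-N-FI) and -0.18 (SK-N-BE(2)), against 0.12, 0.02, 0.01 and -0.00 over all genes tested.

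**Figure D1:**
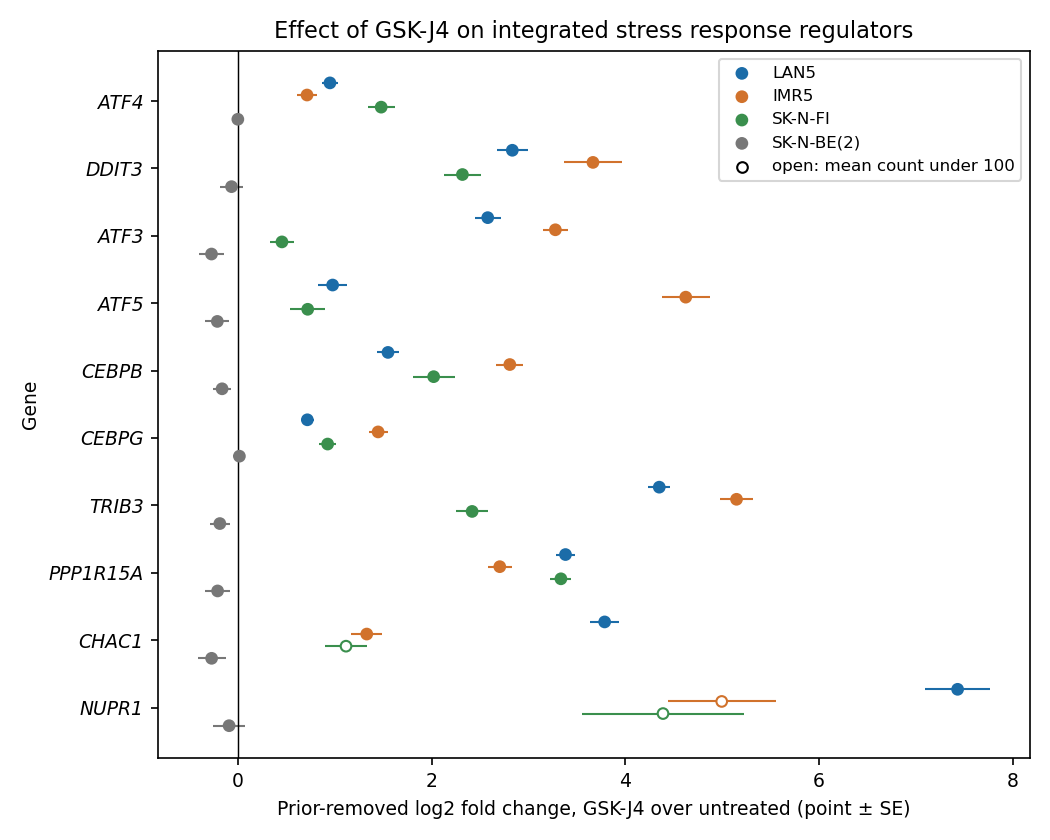
Prior-removed log2 fold change of GSK-J4 over untreated (x axis, points with bars of 1 standard error) for the 10 regulators (y axis) in 4 lines, with open points for genes whose mean normalized count was under 100. All points of LAN5, IMR5 and SK-N-FI lie above 0, from 0.45 for ATF3 in SK-N-FI to 7.43 for NUPR1 in LAN5, and those of SK-N-BE(2) lie between -0.27 and 0.02.

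The promoters of these genes were searched because 10 genes of 1 program moved together. RefSeq windows of 250 bases before to 50 after a transcription start (GRCh38.p14) matched 9 of the 10 genes, all but NUPR1. A C/EBP-ATF composite element, the letters TGATGNAA to which ATF4 is known to bind with a C/EBP partner, was looked for on both strands in the 250 bases before each start. It was present for 3 of 9 regulators, ATF3, CEBPG and CHAC1, and for 3.89% of the 27305 genes in the RefSeq set. The cyclic AMP response element, the palindrome TGACGTCA that ATF family dimers bind, was present for PPP1R15A alone among the 9 and for 2.03% of genes. The sequences below show each match in capitals, 5′ to 3′ on the strand of the gene. In CHAC1 the element lies on the opposite strand, so its capitals are the reverse complement, and it falls inside an exon of a longer annotated CHAC1 transcript.
ATF3, chr1:212565180-212565259, plus strand: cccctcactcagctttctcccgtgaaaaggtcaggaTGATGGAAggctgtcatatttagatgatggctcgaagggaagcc
CEBPG, chr19:33374035-33374112, plus strand: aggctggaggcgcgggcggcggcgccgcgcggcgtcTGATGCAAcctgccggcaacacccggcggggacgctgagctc
CHAC1, chr15:40953251-40953280, plus strand: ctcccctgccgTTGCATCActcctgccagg
PPP1R15A, chr19:48872352-48872381, plus strand: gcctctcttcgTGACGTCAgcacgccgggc
Counted from the start site, the matches lie at -191 to -184 in ATF3, -42 to -35 in CEBPG, -209 to -202 in CHAC1 and -58 to -51 in PPP1R15A. A match describes these letters only, and no binding was measured.

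ATF4, the transcription factor at the centre of the response (chromosome 22, 39519695 to 39522685 on GRCh38, ENSG00000128272), was the most abundant of the 10 per kilobase. Its log2 fold changes in the authors' deposited tables were 0.94 ± 0.0849 (LAN5, SE), 0.71 ± 0.103 (IMR5), 1.44 ± 0.135 (SK-N-FI) and -0.00 ± 0.0417 (SK-N-BE(2); DESeq2 adjusted p = 2e-27, 4.55e-11, 1.48e-24 and 0.997). The mean and the fold change of a table together imply a level in each group, given here in CPM. For ATF4 they imply 391 CPM untreated and 755 treated for LAN5, 243 and 398 for IMR5, 282 and 785 for SK-N-FI, with 386 in both states for SK-N-BE(2). The untreated level of SK-N-BE(2) lay beside that of LAN5, and its treated level was the lowest of the 4. The prior-removed effect was larger in SK-N-FI than in IMR5 by 0.77 and than in LAN5 by 0.53 on the log2 scale (two-sided Wald test, Benjamini-Hochberg adjusted p = 5.36e-05 and 0.00322). LAN5 and IMR5 were not called different, at 0.24 with a 95% interval of -0.03 to 0.50 (adjusted p = 0.115), but were with effects centred on the median gene (0.31). The 95% interval of the ATF4 effect in SK-N-BE(2) was -0.09 to 0.09 with the smaller-error solution of the equations that undo the shrinkage. With the other solution it was -1.21 to 1.19, and ATF4 was then not called different between SK-N-BE(2) and any sensitive line. The main results used that other solution only for genes with a mean below 134 normalized counts in SK-N-BE(2), where ATF4 had 6189. Since ATF4 is controlled largely at translation, its mRNA is only part of what the protein does, and protein was not measured.

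DDIT3 (chromosome 12, 57516588 to 57521737, minus strand, ENSG00000175197) encodes CHOP, the ATF4-induced factor tied to stress-related cell death. In the authors' deposited tables it rose, with log2 fold changes of 2.77 ± 0.159 (LAN5), 3.35 ± 0.275 (IMR5) and 2.21 ± 0.184 (SK-N-FI), and was listed at -0.04 ± 0.0789 for SK-N-BE(2) (DESeq2 adjusted p = 1.8e-66, 1.4e-32, 6.78e-31 and 0.942). The implied levels went from 3.98 to 28.4 CPM for LAN5, 4.02 to 51 for IMR5 and 9.12 to 45.5 for SK-N-FI. In SK-N-BE(2) they were 17.5 untreated and 16.7 treated, so the untreated resistant line stood above the untreated sensitive lines and below all of them after treatment. The effect was larger in IMR5 than in LAN5 by 0.83 and than in SK-N-FI by 1.35 (Wald test, adjusted p = 0.0263 and 0.000653), and LAN5 and SK-N-FI were not called different (0.52, 95% interval 0.02 to 1.01, adjusted p = 0.0737). With the deposited fold changes the difference from LAN5 was no longer called (-0.58), and that between LAN5 and SK-N-FI was (0.57). Exons of DDIT3 overlap those of MARS and MBD6 on the other strand, and whether counting used strand is not given in the sources used here. They also overlap AC022506.1 on the same strand, which counting by strand would not separate. In the authors' deposited tables of LAN5, IMR5 and SK-N-FI, log2 fold changes were 0.99, 0.44 and -0.22 for MARS and 0.18, 1.06 and 0.27 for MBD6. MARS is the more abundant gene: its implied level for LAN5 went from 2338 to 4649 normalized counts, against 61.6 to 439 for DDIT3. The part of these overlapping genes in the DDIT3 reads was not tested.

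ATF3 (chromosome 1, 212565334 to 212620777, ENSG00000162772), a stress-induced factor that dampens or redirects transcription of ATF target genes, divided the sensitive lines. For LAN5 and IMR5 its log2 fold changes in the authors' deposited tables were 2.54 ± 0.133 and 3.22 ± 0.126, but for SK-N-FI 0.45 ± 0.122 (DESeq2 adjusted p = 2.6e-79, 3.43e-142 and 0.00149). Before treatment SK-N-FI already had the highest implied ATF3 level, 27.3 CPM, against 6.71 for LAN5, 11.1 for IMR5 and 16.4 for SK-N-BE(2). After treatment IMR5 reached 108 CPM, LAN5 40.1, SK-N-FI 37.4 and SK-N-BE(2) 13.5, so LAN5 and SK-N-FI ended at like levels from different starting points. The effect in SK-N-FI was smaller than in IMR5 by 2.82 and than in LAN5 by 2.13 (Wald test, adjusted p = 9.49e-54 and 4.44e-29). For SK-N-BE(2) the authors' deposited table gave -0.17 ± 0.0809 with an unadjusted p of 0.0407 and a DESeq2 adjusted p of 0.441, the nearest to a call of the 10 genes in that line.

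ATF5 (chromosome 19, 49928702 to 49933935, ENSG00000169136), a relative of ATF4 whose mRNA is also translated preferentially when eIF2 is phosphorylated and which is linked to mitochondrial stress, was set apart by IMR5. The authors' deposited tables gave it a log2 fold change of 4.34 ± 0.235 for IMR5 but 0.96 ± 0.149 for LAN5, 0.69 ± 0.174 for SK-N-FI, with -0.14 ± 0.0797 for SK-N-BE(2) (DESeq2 adjusted p = 4.07e-74, 7.46e-10, 0.000481 and 0.615). Implied untreated levels were 9.43 CPM (LAN5), 9.17 (IMR5), 7.85 (SK-N-FI) and 16.8 (SK-N-BE(2)). After GSK-J4 they were 18.6, 226, 12.9 and 14.5, so treated IMR5 stood 17.5-fold above treated SK-N-FI, the lowest line. The prior-removed effect was larger in IMR5 than in SK-N-FI by 3.90 (95% interval 3.30 to 4.51) and than in LAN5 by 3.65 (3.07 to 4.22), the largest differences between sensitive lines among the regulators tested (Wald test, adjusted p = 2.15e-34 and 5.32e-34). LAN5 and SK-N-FI were not called different (0.26, 95% interval -0.21 to 0.72). ATF5 shares exonic sequence with NUP62 on the other strand, and NUP62 had a log2 fold change of -0.88 ± 0.0795 for IMR5 in the authors' deposited table, opposite to that of ATF5. Exons of ATF5 also overlap IL4I1 on the other strand and MIR4751 on the same strand.

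CEBPB and CEBPG encode C/EBP proteins, basic leucine zipper factors that pair with ATF4 on its composite elements. CEBPB (chromosome 20, 50190734 to 50192689, ENSG00000172216) had log2 fold changes of 1.53 ± 0.113 (LAN5), 2.75 ± 0.137 (IMR5), 1.90 ± 0.205 (SK-N-FI) and -0.12 ± 0.0719 (SK-N-BE(2)) in the authors' deposited tables (DESeq2 adjusted p = 1.87e-40, 5.73e-88, 1.29e-18 and 0.615). Its implied untreated level was 29.3 CPM in SK-N-BE(2), against 17.7 (LAN5), 4.9 (IMR5) and 4.5 (SK-N-FI), and treatment took the sensitive lines to 51.7, 34.3 and 18.3. Treated SK-N-BE(2), at 26.1, lay between IMR5 and SK-N-FI, so for CEBPB the resistant line was not the lowest after treatment. CEBPG (chromosome 19, 33373330 to 33382686, ENSG00000153879) had 0.71 ± 0.0698, 1.43 ± 0.0965, 0.92 ± 0.0844 and 0.01 ± 0.0544 for LAN5, IMR5, SK-N-FI and SK-N-BE(2) in the authors' deposited tables (DESeq2 adjusted p = 2.41e-23, 4.67e-48, 1.63e-25 and 0.974). Its untreated levels spanned 1.31-fold over the 4 lines, from 84.1 to 110 CPM, and it was the 1 regulator of 10 whose untreated level was lowest in SK-N-BE(2), as for 20.4% of 11475 genes. Both genes were raised more in IMR5 than in LAN5, by 1.26 for CEBPB and 0.73 for CEBPG (Wald test, adjusted p = 2.15e-11 and 6.48e-09). CEBPB shares exonic sequence with its antisense gene CEBPB-AS1, whose means were 38, 4.17, 36.8 and 11.9 normalized counts in the authors' deposited tables.

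TRIB3 and PPP1R15A are feedback genes of the response. TRIB3 (chromosome 20, 362835 to 397559, ENSG00000101255) encodes a pseudokinase that binds ATF4 and CHOP and restrains them, and it had the largest change of the 10 in IMR5. Its log2 fold changes were 4.30 ± 0.111 (LAN5), 5.003 ± 0.163 (IMR5), 2.33 ± 0.156 (SK-N-FI) and -0.14 ± 0.0734 (SK-N-BE(2)) in the authors' deposited tables (DESeq2 adjusted p listed as 0, then 3.42e-204, 7.27e-48 and 0.536). Counted from the most raised gene by the Wald statistic, it ranked 8 in LAN5 and 7 in IMR5. The implied levels rose from 7.43 to 152 CPM for LAN5, 2.51 to 88.9 for IMR5 and 14.2 to 76 for SK-N-FI, while SK-N-BE(2) had 25.2 and 22.1. Untreated SK-N-BE(2) thus held 10.1 times the TRIB3 of untreated IMR5, and treated SK-N-BE(2) the least of the 4 lines. The effect in SK-N-FI was smaller than in LAN5 by 1.93 and than in IMR5 by 2.73 (Wald test, adjusted p = 4.44e-21 and 9.68e-30).

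PPP1R15A (chromosome 19, 48872392 to 48876057, ENSG00000087074) encodes GADD34, the subunit that directs protein phosphatase 1 to eIF2 and so ends the translational block. It was the most clearly raised gene of the whole SK-N-FI table, with rank 1 of 22576 by the Wald statistic and a log2 fold change of 3.28 ± 0.107 in the authors' deposited table (DESeq2 adjusted p = 2.07e-203). LAN5 had 3.35 ± 0.0979, IMR5 2.66 ± 0.12 and SK-N-BE(2) -0.13 ± 0.0808 in the authors' deposited tables (DESeq2 adjusted p = 1.45e-254, 1.96e-106 and 0.677). Implied levels went from 17.9 to 187 CPM for LAN5, 10.9 to 71.1 for IMR5 and 22.3 to 225 for SK-N-FI, and were 14.4 and 12.4 in SK-N-BE(2). IMR5, which had the largest effect for DDIT3, ATF3, ATF5, CEBPB, CEBPG and TRIB3, had the smallest of the sensitive lines for PPP1R15A: the effect was larger in LAN5 than in IMR5 by 0.68 and larger in SK-N-FI than in IMR5 by 0.63 (Wald test, adjusted p = 4.68e-05 and 0.000451). LAN5 and SK-N-FI differed by 0.05 with a 95% interval of -0.24 to 0.33.

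CHAC1 and NUPR1 act downstream. CHAC1 (chromosome 15, 40952962 to 40956519, ENSG00000128965) encodes an enzyme that breaks down glutathione, the main thiol antioxidant of the cell, and LAN5 stood apart for it. The authors' deposited tables gave log2 fold changes of 3.71 ± 0.15 (LAN5), 1.30 ± 0.154 (IMR5), 1.05 ± 0.201 (SK-N-FI) and -0.16 ± 0.0819 (SK-N-BE(2)) (DESeq2 adjusted p = 5.12e-133, 4.19e-16, 1.9e-06 and 0.517). Implied untreated levels were 3.76 CPM (LAN5), 5.75 (IMR5), 3.65 (SK-N-FI) and 13.1 (SK-N-BE(2)), and treated levels 51.9, 14.5, 7.91 and 10.8. LAN5 exceeded IMR5 in effect by 2.46 (95% interval 2.03 to 2.89, Wald test, adjusted p = 1.58e-27). With a mean of 93 normalized counts in SK-N-FI, CHAC1 was not tested in the pairs with that line.

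NUPR1 (chromosome 16, 28532708 to 28539174, minus strand, ENSG00000176046) encodes a small stress-induced chromatin protein and had the largest fold change of the 10 in LAN5 and the most uneven mean. Mean normalized counts in the authors' deposited tables were 421 (LAN5), 28.2 (IMR5), 7.75 (SK-N-FI) and 121 (SK-N-BE(2)). For the lines in the same order, its log2 fold changes in the authors' deposited tables were 6.78 ± 0.306, 3.77 ± 0.422, 2.26 ± 0.428 and -0.04 ± 0.0828 (DESeq2 adjusted p = 2.62e-106, 6.08e-18, 1.51e-06 and 0.942). The mean of the resistant line lay above those of IMR5 and SK-N-FI, which include treated libraries in which NUPR1 had risen. The implied untreated counts of 4.85, 1.72 and 0.705 in LAN5, IMR5 and SK-N-FI are close to 0 and rest on the size of the fold change, so folds against them are uncertain. NUPR1 had a mean of 100 or more in LAN5 and SK-N-BE(2) alone. In LAN5 it reached that mean only through the treated libraries, at an implied 838 normalized counts. The effect came out larger in LAN5 by 7.52 (95% interval 6.79 to 8.26, Wald test, adjusted p = 5.1e-87). That size rests on the LAN5 untreated count near 0, so this test adds no separate support.

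The effects were next compared between lines over all regulators, and every gene whose mean was 100 or more in both tables was tested in the same way. The mean covers treated libraries, so a gene raised by GSK-J4 can reach 100 through them. Between LAN5 and IMR5 8 of 9 regulators tested differed, where 61.1% of all 9895 genes did: 6 had a larger effect in IMR5 (34.4% of genes), DDIT3, ATF3, ATF5, CEBPB, CEBPG and TRIB3, and 2 in LAN5 (26.7% of genes), PPP1R15A and CHAC1. All 8 tested differed between IMR5 and SK-N-FI, against 49.1% of 9566 genes, 6 being larger in IMR5 (22.5% of genes) and 2, ATF4 and PPP1R15A, larger in SK-N-FI (26.6%). LAN5 and SK-N-FI had the fewest calls, with 3 of 8 called against 52.7% of 9855 genes: ATF3 and TRIB3 were larger in LAN5 (22% of genes) and ATF4 in SK-N-FI (30.7%). This count leaves out CHAC1 and NUPR1, whose means in SK-N-FI were under 100. Their prior-removed effects were 3.79 (CHAC1) and 7.43 (NUPR1) in LAN5, against 1.12 and 4.39 in SK-N-FI. These lie further apart than those of any regulator tested in this pair, though the NUPR1 values rest on untreated counts near 0. The fewer calls therefore do not show that these lines were the most alike. SK-N-FI is the one sensitive line with MYCN wildtype, so MYCN status and line cannot be told apart in these pairs.

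**Figure D2:**
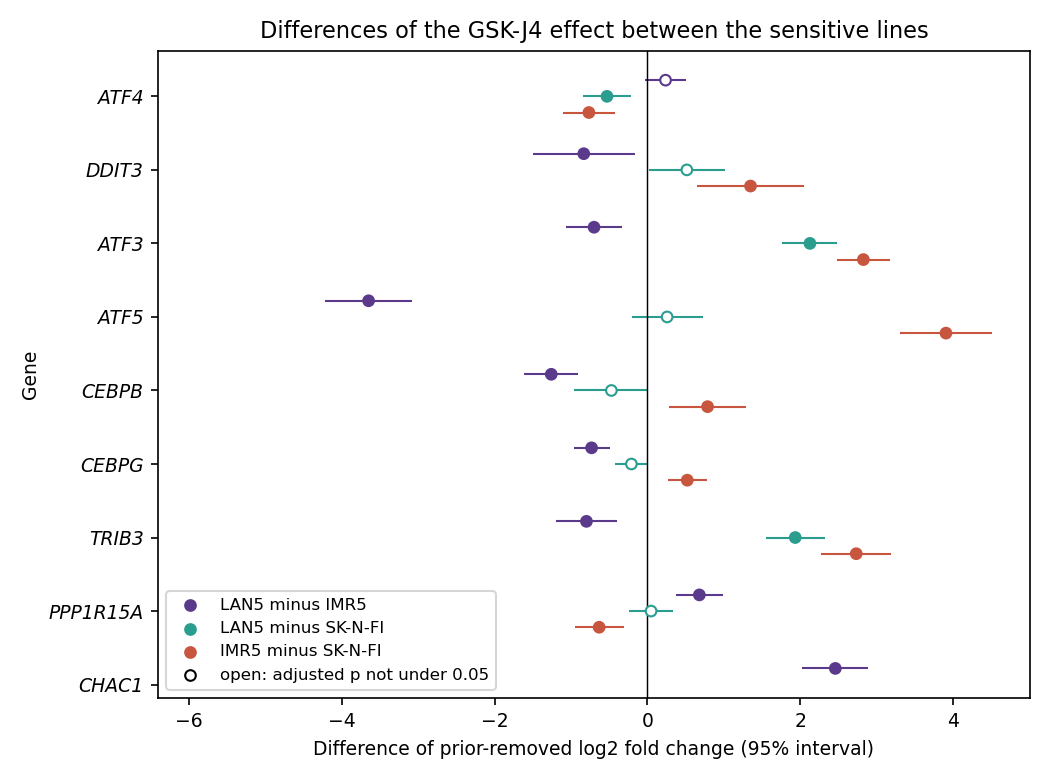
Difference between 2 sensitive lines in the prior-removed log2 fold change (x axis, points with 95% intervals) for the regulators tested in each pair (y axis), with open points for an adjusted p not under 0.05. ATF5 lies farthest from 0, at -3.65 for LAN5 minus IMR5 and 3.90 for IMR5 minus SK-N-FI, and PPP1R15A lies at 0.05 for LAN5 minus SK-N-FI.

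Against SK-N-BE(2), every regulator tested had a larger effect in the sensitive line. These were 10 of 10 for LAN5, with differences from 0.70 to 7.52, where 60.8% of 10076 genes differed and 24.3% were larger in LAN5. They were 9 of 9 for IMR5, from 0.71 to 5.34 (62.4% of 9857 genes, 29.1% larger in IMR5), and 8 of 8 for SK-N-FI, from 0.73 to 3.55 (44.3% of 9735 genes, 22.3% larger in SK-N-FI). With the other solution of the shrinkage equations for SK-N-BE(2), ATF4 lost its call against all 3 sensitive lines and CEBPG against LAN5 and SK-N-FI. Elsewhere that solution served only genes with a mean below 134 normalized counts in SK-N-BE(2), where ATF4 had 6189 and CEBPG 1356. CEBPG gave the smallest difference from LAN5, ATF4 from IMR5 and ATF3 from SK-N-FI. These 3 comparisons share the SK-N-BE(2) libraries. Of the 10 deposited fold changes in SK-N-BE(2) 9 were below 0, where 50.1% of all genes tested in the authors' deposited table were. Ordered by the Wald statistic from the most raised to the most lowered gene, the 10 ranked from 5540 to 12931 of 13407. None of the 10 was called in that line, so these positions do not establish a fall of any single gene.

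Before treatment, the resistant line held the highest level of most regulators. The implied untreated level was highest in SK-N-BE(2) for 6 of 10, DDIT3, ATF5, CEBPB, TRIB3, CHAC1 and NUPR1, against 20.2% of 11475 genes whose mean averaged 100 or more over the tables. It exceeded the highest sensitive line 1.92-fold for DDIT3, 1.78-fold for ATF5, 1.66-fold for CEBPB, 1.77-fold for TRIB3 and 2.27-fold for CHAC1. ATF4 itself stood at 0.989 times LAN5, though it was highest in SK-N-BE(2) when tables were scaled by median ratios, and ATF3, CEBPG and PPP1R15A were highest in SK-N-FI. With GSK-J4 the order turned: SK-N-BE(2) was highest for 0 of 10, against 24.5% of genes, and lowest for 6 of 10, ATF4, DDIT3, ATF3, CEBPG, TRIB3 and PPP1R15A, against 21.1%. SK-N-FI was lowest after treatment for the other 4, ATF5, CEBPB, CHAC1 and NUPR1, and the share of all genes lowest in that line was not worked out. The tables were normalized separately and give no error on a level, so these orders are descriptions with no test, and neighbours that lie close cannot be ranked. Per kilobase of the longest principal transcript, ATF4 was the most abundant and CEBPG the second most abundant untreated regulator in all 4 lines.

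**Figure D3:**
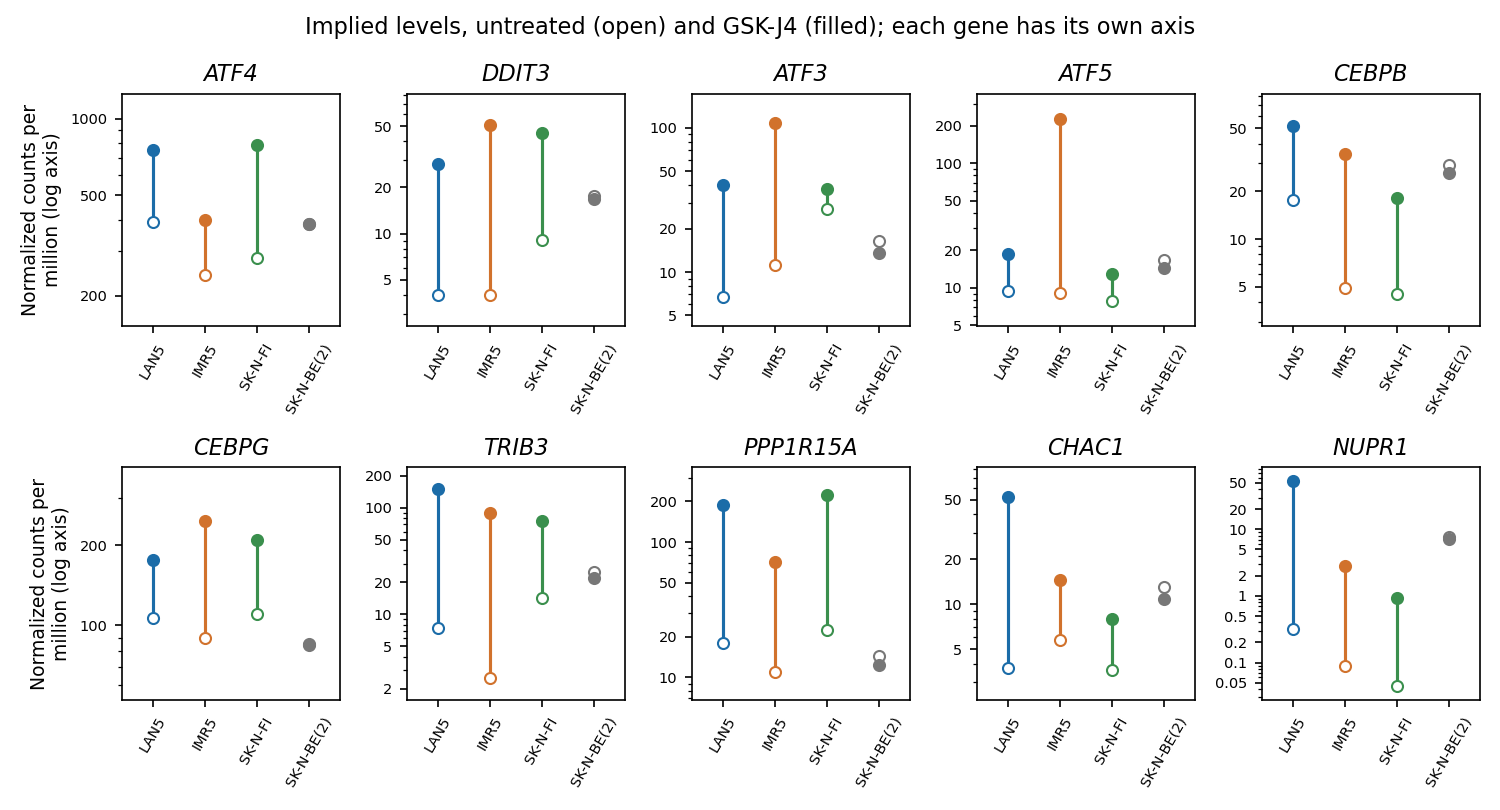
Implied level in CPM (log y axis, each gene on its own scale) of the 10 regulators untreated (open) and with GSK-J4 (filled) in each line, joined by a line. In SK-N-BE(2) the pairs of points nearly coincide, and for DDIT3, ATF5, CEBPB, TRIB3, CHAC1 and NUPR1 its untreated point is the highest of the 4 lines.

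Genes that ATF4 and CHOP are known to switch on mostly rose in the same 3 lines. Of 38 such targets in the list, 34 rose and 1 fell for LAN5, 35 rose and 3 fell for IMR5, 29 of 37 tested rose and 1 fell for SK-N-FI, and 0 of 37 passed for SK-N-BE(2) in the authors' deposited tables. Over all genes tested, 22.5% rose and 19.2% fell for LAN5, 22.6% and 21.6% for IMR5, and 16.8% and 14.8% for SK-N-FI. For SK-N-BE(2) the shares were 1.62% and 0.858%, so a count of 0 in a list of this size lies near them. The median prior-removed log2 fold changes of the targets were 1.28, 1.26, 0.87 and -0.03. Among the targets, GDF15, a stress cytokine, was given log2 fold changes by the authors' deposited tables of 6.05 ± 0.421 (LAN5), 8.97 ± 0.251 (IMR5) and 3.14 ± 0.249 (SK-N-FI). For SLC7A11, which imports cystine, the authors' deposited tables gave 5.51 ± 0.11 (LAN5), 3.53 ± 0.123 (IMR5) and 2.64 ± 0.131 (SK-N-FI). The exception in LAN5 was ALDH18A1, an enzyme of proline synthesis, which fell by 1.34 ± 0.0669 on the log2 scale there and by 0.37 ± 0.0688 for IMR5 in the authors' deposited tables. The others that fell were the amino acid transporter gene SLC38A2 and CBS, an enzyme of cysteine synthesis named after its value was seen, in IMR5, and the methionyl-tRNA synthetase gene MARS1 (called MARS above) in SK-N-FI. In the untreated state 18 of 37 targets were highest in SK-N-BE(2), against the 20.2% of all genes given above, as were 8 of 18 targets of the ATF6 and XBP1 branches described below. After treatment 18 of 37 ATF4/CHOP targets were lowest in SK-N-BE(2), against 21.1% of genes. In SK-N-FI 17 of 37 targets were lowest after treatment and 17 of 37 before it. The share of all genes lowest in SK-N-FI was not worked out, so nothing is concluded from its counts. The list was chosen with earlier results of these data known.

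Genes listed as paralogs of the regulators, some of them distant, mostly rose where they changed, with exceptions in each sensitive line. Among 14 paralogs, 7 of 12 tested rose and 2 fell for LAN5, 7 of 12 rose and 2 fell for IMR5, 5 of 11 rose and 1 fell for SK-N-FI, and 0 of 10 passed for SK-N-BE(2) in the authors' deposited tables. Over all genes tested, as given above, 22.5% rose and 19.2% fell for LAN5, 22.6% and 21.6% for IMR5, and 16.8% and 14.8% for SK-N-FI. For SK-N-BE(2) the shares were 1.62% and 0.858%. PPP1R15B, the constitutive partner of PPP1R15A in eIF2 dephosphorylation, rose by 1.16 ± 0.0796 (LAN5), 1.13 ± 0.175 (IMR5) and 0.67 ± 0.0912 (SK-N-FI) in log2 terms in the authors' deposited tables. These changes were smaller than those of PPP1R15A, and the difference was not tested. The authors' deposited tables show the pseudokinase genes TRIB1 and TRIB2 as the paralogs that fell in LAN5, by 0.67 ± 0.108 and 0.40 ± 0.0588. TRIB2 also fell in IMR5, by 0.61 ± 0.0797 in the authors' deposited table. CHAC2, the relative of CHAC1 with lower glutathione-degrading activity, fell by 1.11 ± 0.162 in IMR5 and by 1.47 ± 0.2 in SK-N-FI according to the authors' deposited tables.

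Genes upstream of ATF4 changed in both directions as a list, which holds the eIF2 kinases, an eIF2 subunit, its exchange factor and further genes of the pathway. For LAN5 2 of 15 rose and 7 fell, for IMR5 5 of 14 rose and 6 fell, for SK-N-FI 2 of 15 rose and 3 fell, and for SK-N-BE(2) 0 of 15 passed in the authors' deposited tables. These counts, and those of the next list, stand beside the same shares of all genes, 22.5% rising and 19.2% falling for LAN5, 22.6% and 21.6% for IMR5, and 16.8% and 14.8% for SK-N-FI. For SK-N-BE(2) the shares were 1.62% and 0.858%. In LAN5 the 2 that rose were DNAJC3 and DELE1, which are neither eIF2 kinases nor parts of eIF2 or its exchange factor. Every eIF2 kinase gene in the list fell in LAN5. EIF2AK3, which encodes the endoplasmic reticulum kinase PERK, fell by 0.39 ± 0.0977 in LAN5 but rose by 0.49 ± 0.1 in IMR5 and by 0.39 ± 0.104 in SK-N-FI according to the authors' deposited tables. EIF2B4, an exchange factor subunit, fell by 0.48 ± 0.0973 in LAN5 and by 0.60 ± 0.0922 in IMR5 in the authors' deposited tables, and was listed at -0.26 ± 0.137 for SK-N-FI, not called. The kinases act by phosphorylation, which was not measured. Targets of the other endoplasmic reticulum branches, ATF6 and XBP1, were likewise mixed: 8 of 18 rose and 5 fell for LAN5, 6 rose and 8 fell for IMR5, and 3 rose and 6 fell for SK-N-FI, with 0 of 18 called for SK-N-BE(2), in the authors' deposited tables. The lists overlap: this one also counts the ATF6 gene, which is among the paralogs, and DNAJC3, which is among the upstream genes. EDEM1, a factor in the disposal of misfolded glycoproteins, rose by 1.90 ± 0.0963, 2.53 ± 0.207 and 0.98 ± 0.0979 in the 3 sensitive lines, and XBP1 by 1.32 ± 0.0677, 1.70 ± 0.0901 and 0.95 ± 0.144, in the authors' deposited tables. MANF, a secreted stress-induced chaperone cofactor, fell by 0.91 ± 0.0976 in LAN5, by 0.42 ± 0.0852 in IMR5 and by 0.77 ± 0.175 in SK-N-FI according to the authors' deposited tables.

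Mitochondrially encoded mRNAs moved beside these lists. Of 13, 9 fell and 1 rose for LAN5, 8 fell and 2 rose for IMR5, 13 fell for SK-N-FI, and 2 fell (MT-ND1 and MT-ND3) for SK-N-BE(2) in the authors' deposited tables, with median prior-removed log2 fold changes of -1.01, -0.62, -2.01 and 0.04. This list was kept as a sign of RNA quality, and its part in the change of the regulators was not tested. Neuroblast markers also moved: 10 of 12 fell for LAN5, 4 fell and 4 rose of 10 for IMR5, 6 fell and 3 rose of 11 for SK-N-FI and 6 of 12 fell for SK-N-BE(2), in the authors' deposited tables, and their part was not tested either. Both lists stand beside shares of all genes of 22.5% rising and 19.2% falling for LAN5, 22.6% and 21.6% for IMR5, and 16.8% and 14.8% for SK-N-FI. For SK-N-BE(2) the shares were 1.62% and 0.858%, so the 6 of 12 neuroblast markers that fell there lay far above the share of genes that fell. In RNA of whole cultures, fewer cells of a state and less RNA per cell cannot be told apart.

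**Figure D4:**
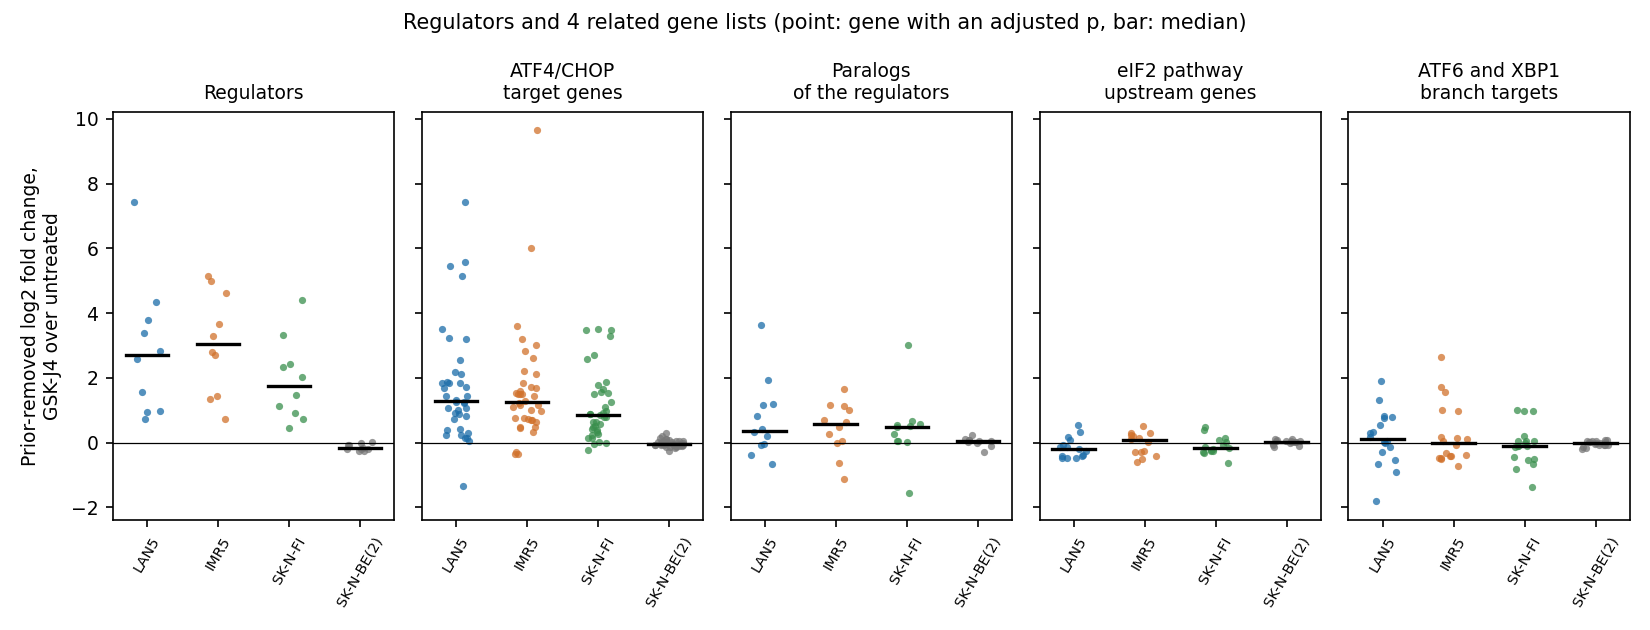
Prior-removed log2 fold change of GSK-J4 over untreated (y axis) for each tested gene (points) of the regulators and 4 related lists, by line, with a bar at the median. The regulators and the ATF4/CHOP targets lie mostly above 0 in the 3 sensitive lines, with regulator medians of 2.71, 3.04 and 1.75, while the upstream genes and the ATF6 and XBP1 targets spread around 0.

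The genes whose 4 effects lay nearest to those of ATF4 and DDIT3 were found among 8982 genes whose mean was 100 or more in every table, by Euclidean distance over the 4 prior-removed log2 fold changes. For ATF4 these were CCDC150 (distance 0.196), OSER1, FTL, CHKA and ZNF274, and FTL, the ferritin light chain gene, had 0.94, 0.58, 1.29 and -0.12 in LAN5, IMR5, SK-N-FI and SK-N-BE(2). For DDIT3 they were SAT1 (distance 1.09), ASNS, OPTN, CREBRF and SLC30A1, of which ASNS, the asparagine synthetase gene, is in the target list and had 2.54, 3.01, 1.49 and -0.04. DDIT3 had no gene as near to it as the fifth for ATF4, at 0.327. Distances were not scaled for effect size, and DDIT3 had larger effects than ATF4 in every sensitive line. The longer distances therefore do not show a more distinct pattern for DDIT3. The likeness is over 4 values per gene and describes only these lines.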

How the data were processed

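The deposited files hold 1 table of the authors' comparison per line. Per the submitters' processing notes, reads were checked with FastQC, aligned with STAR to hg38 and tested with DESeq2, with no versions. The sources used here do not give the counting tool, annotation, use of strand in counting or design formula. The signal column, per the file headers, is a mean of the authors' normalized counts over all libraries of a line. The log2 fold change, its error, the Wald score, the p-value and the adjusted p-value are used as deposited by the authors. In the SK-N-BE(2) table the score differed from fold change over error by more than 0.0001 for 19488 genes, so the equations below may hold less well there.

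The direction, GSK-J4 over untreated, was read from BBC3 in the sensitive lines and from MT2A and SLC30A1 in SK-N-BE(2). The 10 genes and all lists were chosen with earlier results of these data known, and list genes are named by a rule: per line, up to 2 called genes in each direction with the largest deposited fold change and a mean of at least 100.

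Deposited errors had a ceiling (0.539, 0.490, 0.428 and 0.0828 for LAN5, IMR5, SK-N-FI and SK-N-BE(2)) and fell again for weak genes, the pattern left by shrinkage under a normal prior. The prior was taken as a variance of the square of 2 times that ceiling, and the equations for fold change and error were solved per gene. Of their pair of solutions, the one with the smaller error was used for genes expressed above the peak of the running median error (501 genes), and the other for weaker genes. Differences between lines were tested on these values by a two-sided Wald test with Benjamini-Hochberg adjustment over all genes whose mean was 100 or more in both tables, in 6 pairs of lines. A call is an adjusted p under 0.05. Implied levels assume equal groups. Motifs were searched in RefSeq windows (GRCh38.p14), and coordinates and exon overlaps are from GENCODE 29. Work was done in Python 3.11.15 with numpy 2.4.6, scipy 1.17.1 and pandas 2.3.3. Alternatives were the deposited values, other thresholds, minimum means, scalings and priors.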

Additional observations from a re-analysis of the deposited data

Results flagged for a closer look

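Effects of GSK-J4 that differ between lines, by the two-sided Wald test on prior-removed log2 fold changes with Benjamini-Hochberg adjustment over all genes whose mean was 100 or more in both tables, deserve a closer look. The number of regulators with a different effect was 8 of 9 tested between LAN5 and IMR5 (61.1% of all genes tested), 3 of 8 between LAN5 and SK-N-FI (52.7%), and 8 of 8 between IMR5 and SK-N-FI (49.1%). It was 10 of 10 between LAN5 and SK-N-BE(2) (60.8% of all genes tested), 9 of 9 between IMR5 and SK-N-BE(2) (62.4%) and 8 of 8 between SK-N-FI and SK-N-BE(2) (44.3%). NUPR1 reached the mean of 100 in LAN5 only through treated libraries and was not tested in pairs with IMR5 or SK-N-FI. CHAC1 was not tested in pairs with SK-N-FI. The 3 of 8 between LAN5 and SK-N-FI thus leave out both genes. Their prior-removed effects were 3.79 (CHAC1) and 7.43 (NUPR1) in LAN5, against 1.12 and 4.39 in SK-N-FI.

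Among the pairs tested, the largest difference of each gene between 2 sensitive lines was as follows. Between IMR5 and SK-N-FI, IMR5 minus SK-N-FI was -0.77 for ATF4, 1.35 for DDIT3, 2.82 for ATF3, 3.90 for ATF5 and 2.73 for TRIB3. Between LAN5 and IMR5, LAN5 minus IMR5 was -1.26 for CEBPB, -0.73 for CEBPG, 0.68 for PPP1R15A and 2.46 for CHAC1. In IMR5 the effect was thus the larger for 6 of these 9 genes, DDIT3, ATF3, ATF5, TRIB3, CEBPB and CEBPG, and the smaller for ATF4, PPP1R15A and CHAC1. No explanation was tested.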

How the results depend on the processing

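With values of single libraries not used here, no library could be left out and no other count normalization run. No paired analysis was possible because the tables hold no column per library. At an unadjusted p under 0.05, a count added after seeing the data, 1 regulator, ATF3, was lower in SK-N-BE(2). With a mean of at least 300 in both tables fewer regulators could be tested, and those called were 5 of 6 for LAN5 minus IMR5 (63.7% of all genes tested), 4 of 4 for LAN5 minus SK-N-BE(2) (65.1%), 4 of 4 for IMR5 minus SK-N-BE(2) (66.3%) and 3 of 3 for SK-N-FI minus SK-N-BE(2) (45.9%). At an adjusted p under 0.01, ATF4/CHOP targets called lower in SK-N-FI went from 1 to 0, upstream genes called higher in IMR5 from 5 to 3 and those called lower in SK-N-FI from 3 to 1; the other 37 list counts stayed within 1.5 times. No result reversed under the alternatives run. With deposited fold changes, DDIT3 was no longer called between LAN5 and IMR5 (-0.58) and was called between LAN5 and SK-N-FI (0.57). Centred on the median gene, ATF4 was called between LAN5 and IMR5 (0.31) and DDIT3 between LAN5 and SK-N-FI (0.60). With the other solution of the equations for SK-N-BE(2), added after seeing the data, ATF4 lost its call in all 3 pairs with that line (0.96, 0.73 and 1.49 for LAN5, IMR5 and SK-N-FI) and CEBPG in the pairs with LAN5 (0.61) and SK-N-FI (0.82). Both genes had means far above 134 normalized counts in that line, the peak below which the main results used that solution. With deposited fold changes the implied untreated level was 0.493, 0.199 and 0.167 CPM for NUPR1 in the sensitive lines and 11.1 for ATF5 in IMR5. Scaled by median ratios, ATF4 was also highest untreated in SK-N-BE(2).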
